A study of Mus musculus with 4 samples.

Results

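Interferon-stimulated genes are genes that cells switch on when interferon receptors are engaged, and 33 of them are described here across the cell types of the mouse aorta. They were matched to the deposited count tables by Ensembl identifier, among 27734 gene identifiers shared by the 4 tables. Of the 33, 31 are listed in all 4 tables and are called the members. Mx1 is listed in 1 table, and Mx2 was not analysed here. The 4 libraries are single-cell RNA libraries of dissociated aorta, 1 per group, from mice aged 16 to 20 weeks. The cKO arch library came from the aortic arch and the cKO descending library from the descending thoracic aorta of CNC-SMC-Cre;Smad4flox/flox;R26-tdT mice. The control arch and control descending libraries came from the same segments of CNC-SMC-Cre;R26-tdT mice. All 4 groups therefore carry the CNC-SMC-Cre driver, taken here from its name to act in smooth muscle of cardiac neural crest origin, and the R26-tdT allele. Floxed Smad4, which encodes the shared signalling partner of the TGF-beta and BMP receptors, was carried by the cKO mice alone. The sources used here do not give how many animals went into a library. With 1 library per group no difference between groups could be tested, and every difference is one between libraries.

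Type I interferons bind the IFNAR receptor, whose kinases act on the ISGF3 complex. STAT2 and IRF9 are subunits of that complex, which binds interferon-stimulated response elements in promoters. Interferon gamma, a product of T and NK cells, acts through its own receptor and on promoters with gamma-activated sites. The proteins made include sensors of viral RNA, inhibitors of viral entry and replication, the ubiquitin-like protein ISG15 and brakes on the response. In the vessel wall the programme is best known from macrophages and endothelial cells.

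The promoters of the members show what the list shares beyond its name. RefSeq promoters on GRCm38.p6, each running from 250 bases before to 50 bases after a gene's start, were at hand for 25 of the 33 genes. The letters GAAA, any 2 bases and GAAA again, the core of the interferon-stimulated response element, were searched on both strands, so that TTTC, any 2 bases and TTTC also count. They occurred in promoters of 15 of the 25 genes, against 1079 of all 27025 genes in the table (3.99%). The letters TTC, any 3 bases and GAA, the core of the gamma-activated site and the same on both strands, occurred in promoters of 6 of the 25 genes and of 2582 of the 27025 genes (9.55%). Overlapping matches were each counted, and a match is a description of the letters, not a binding site. The stretches below are shown because they hold a match of the first motif and belong to genes that the results turn on, while the promoters of Irf7, Irf9 and Ifi44, described below as well, hold none. Each is read along the strand of its gene, with the matches of the first motif in capitals. They come from chr19:34640779-34640838 (Ifit1, plus strand), chr19:34583382-34583441 (Ifit3, plus), chr4:156200850-156200909 (Isg15, minus), chr10:128270251-128270310 (Stat2, plus), chr5:120907505-120907564 (Oas1a, minus), chr12:26456538-26456597 (Rsad2, minus), chr8:71537562-71537621 (Bst2, minus), chr3:142620579-142620638 (Gbp2, plus) and chr7:141010708-141010767 (Ifitm3, minus).
Ifit1: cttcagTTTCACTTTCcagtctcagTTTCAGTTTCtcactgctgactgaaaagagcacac
Ifit3: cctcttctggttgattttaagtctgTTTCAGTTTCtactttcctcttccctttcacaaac
Isg15: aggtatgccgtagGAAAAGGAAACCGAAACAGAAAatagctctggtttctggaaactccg
Stat2: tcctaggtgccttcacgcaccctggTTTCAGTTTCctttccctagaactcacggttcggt
Oas1a: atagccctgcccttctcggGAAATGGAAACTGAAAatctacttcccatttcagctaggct
Rsad2: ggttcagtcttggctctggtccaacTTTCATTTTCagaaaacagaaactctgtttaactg
Bst2: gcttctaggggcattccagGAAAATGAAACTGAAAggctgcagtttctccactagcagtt
Gbp2: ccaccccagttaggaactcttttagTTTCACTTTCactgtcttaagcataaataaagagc
Ifitm3: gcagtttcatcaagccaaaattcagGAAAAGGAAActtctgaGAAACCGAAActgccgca
The runs in Isg15, Oas1a and Bst2 hold matches that overlap each other, and the Ifitm3 matches lie just past the start, inside the transcribed part. The Ifit3 stretch is identical at 60 of 60 bases to the one of its near-copy Ifit3b. Both stretches lie before the start, so they say nothing about the transcripts. Whether reads of the pair are split between the near-copies was not tested, and both genes are reported as uncertain. The same caution holds for Oas1a, which has close paralogs, and for the Gbp genes.

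After filters on genes per cell, mitochondrial share and doublets, 5559 cells were kept in the cKO arch, 8040 in the control arch, 5612 in the cKO descending and 4975 in the control descending library. Median depths were 5765 UMIs per cell in cKO arch, 9944.5 in control arch, 6397 in cKO descending and 7028 in control descending cells, where a UMI (unique molecular identifier) stands for 1 captured transcript. Cells were put into classes by gates on marker genes, and each class is named like its markers (smooth muscle-like, T cell-like and so on, with the suffix left out from here on). Between 5.26 and 13.1% of cells stayed in no class. Levels are UMIs of a gene scaled to 1000000 UMIs of shared genes in a class and library (CPM). Intervals are exact 95% Poisson or binomial intervals and cover counting error only, not the spread between animals. Those of levels and ratios treat UMIs as independent, so they also leave out the spread between cells and are too narrow where it is large. The variance of member UMIs per cell over their mean, which is 1 for Poisson counts, was taken in cells thinned to equal depth, without Ifitm3 and Bst2. It ran from 1.09 in cKO descending smooth muscle to 86.65 in cKO arch neutrophils. Pairs of libraries shared 28 to 61 cell barcodes. The male-specific gene Ddx3y had 1252 UMIs in the control arch library and 0 in the other libraries, while Xist had 18465 to 28544 UMIs. In comparisons with the control arch library, sex therefore cannot be told apart from genotype or segment. The cKO arch library was also counted against another annotation and lost more barcodes to the filters. Its median mitochondrial share was higher than in the control arch library in every class compared. The medians were 4.26% in cKO arch and 2.28% in control arch smooth muscle, and 4.04% in cKO arch and 1.67% in control arch T cells. None of these can be told apart from the genotype and segment of the cKO arch library. Smad4 itself stood at 64.1 CPM in cKO arch and 73.6 CPM in control arch smooth muscle, and at 90.8 CPM in cKO descending and 91.6 CPM in control descending smooth muscle. The sources used here do not name the floxed Smad4 exons, so these levels do not check the deletion.

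Smooth muscle had the lowest summed level of the members of the classes described here in detail in every library, and the highest class differed between libraries. Because Ifitm3, a membrane protein that blocks viral fusion, made up 38.9 to 54.5% of the members' UMIs in smooth muscle and 31.7 to 65.0% in mononuclear phagocytes, sums are given without it. In smooth muscle the other members summed to 487 CPM (477 to 498) in the cKO arch, 373 CPM in the control arch, 270 CPM in the cKO descending and 263 CPM in the control descending library. In fibroblasts the sums were 2242 CPM in the cKO arch, 2036 CPM in the control arch, 714 CPM in the cKO descending and 756 CPM in the control descending library, so both arch libraries were high. Endothelial sums were 2157 CPM in the cKO arch, 2862 CPM in the control arch, 2205 CPM in the cKO descending and 2719 CPM in the control descending library, so both control libraries were high. Mononuclear phagocytes, the class of macrophages and monocytes, with dendritic cells gated apart, had 4246 CPM in the cKO arch and 2604 CPM in the control arch library. In the descending aorta they had 996 CPM in the cKO and 1210 CPM in the control library. T cells stood apart in 1 library, with 3319 CPM (3235 to 3404) in the cKO arch against 1007 CPM in the control arch, 940 CPM in the cKO descending and 1085 CPM in the control descending library. Mesothelial cells, the outer lining of which 5 of 5 markers were detected but whose gate also held fibroblast markers at 6154 to 10230 CPM, had 2196 CPM in the cKO descending, 3480 CPM in the control descending and 4092 CPM in the control arch library. Neutrophils were numerous enough in the cKO arch library alone, where 356 cells gave 5207 CPM (5041 to 5376). A class called modulated mesenchymal cells was gated on Tnfrsf11b, Comp, Spp1, Igfbp2 and Timp1, with upper limits on the smooth muscle and fibroblast scores. These markers were known from earlier results of these data, and whether the cells had changed from another type was not tested. The class had 475 cells in the cKO arch library, at most 7 in any other, and 1516 CPM.

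**Figure D1:**
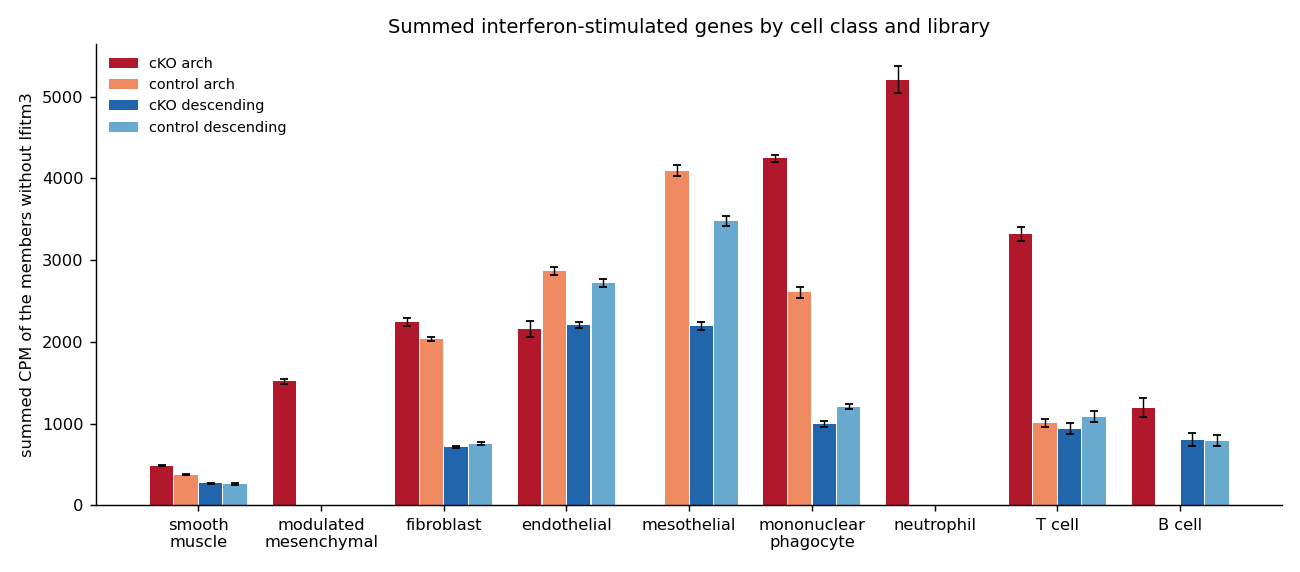
Summed level of the members without Ifitm3, in CPM, for each cell class (groups along the x axis) and library (colours). Bars are single libraries, and lines are their exact 95% Poisson intervals. T cells and mononuclear phagocytes of the cKO arch library stand at 3319 and 4246 CPM, above the same classes of the other libraries, while endothelial cells of the cKO arch library, at 2157 CPM, do not.

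Which class led depended on the member and the library, and the classes with enough cells to be ranked were not the same in each library. Mesothelial cells were ranked in every library but the cKO arch, and neutrophils in the cKO arch library alone. In the control arch library 11 members were highest in mesothelial cells, 11 in mononuclear phagocytes, 8 in endothelial cells and 1 in fibroblasts. In the control descending library 14 were highest in mesothelial and 11 in endothelial cells. In the cKO arch library neutrophils led for 14 members, mononuclear phagocytes for 9, T cells for 5, endothelial cells for 2 and fibroblasts for 1. Bst2, which encodes the tetherin that holds budding virus on the cell surface, was at 1277 CPM in mesothelial cells of the control arch and 929 CPM in those of the control descending library. Oasl2, an oligoadenylate synthetase-like gene, was likewise at 410 CPM in control arch mesothelial cells, against 82.7 CPM in the fibroblasts and 81.5 CPM in the endothelial cells of that library. Rsad2, which encodes the antiviral enzyme viperin, was at 638 CPM in cKO arch neutrophils and 199 CPM in cKO arch phagocytes, against 17.2 CPM in cKO arch fibroblasts. Isg15, the ubiquitin-like modifier, was at 1085 CPM in those neutrophils, 579 CPM in the phagocytes and 53.2 CPM in the smooth muscle of the same library. Trim25, a ubiquitin ligase acting on the RNA sensor RIG-I, varied less between libraries within smooth muscle and within endothelial cells. It was between 7.14 and 8.82 CPM over the 4 smooth muscle samples and between 102 and 136 CPM over the 4 endothelial ones. Between classes it differed widely, from 7.59 CPM in smooth muscle to 185.5 CPM in neutrophils of the cKO arch library.

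**Figure D2:**
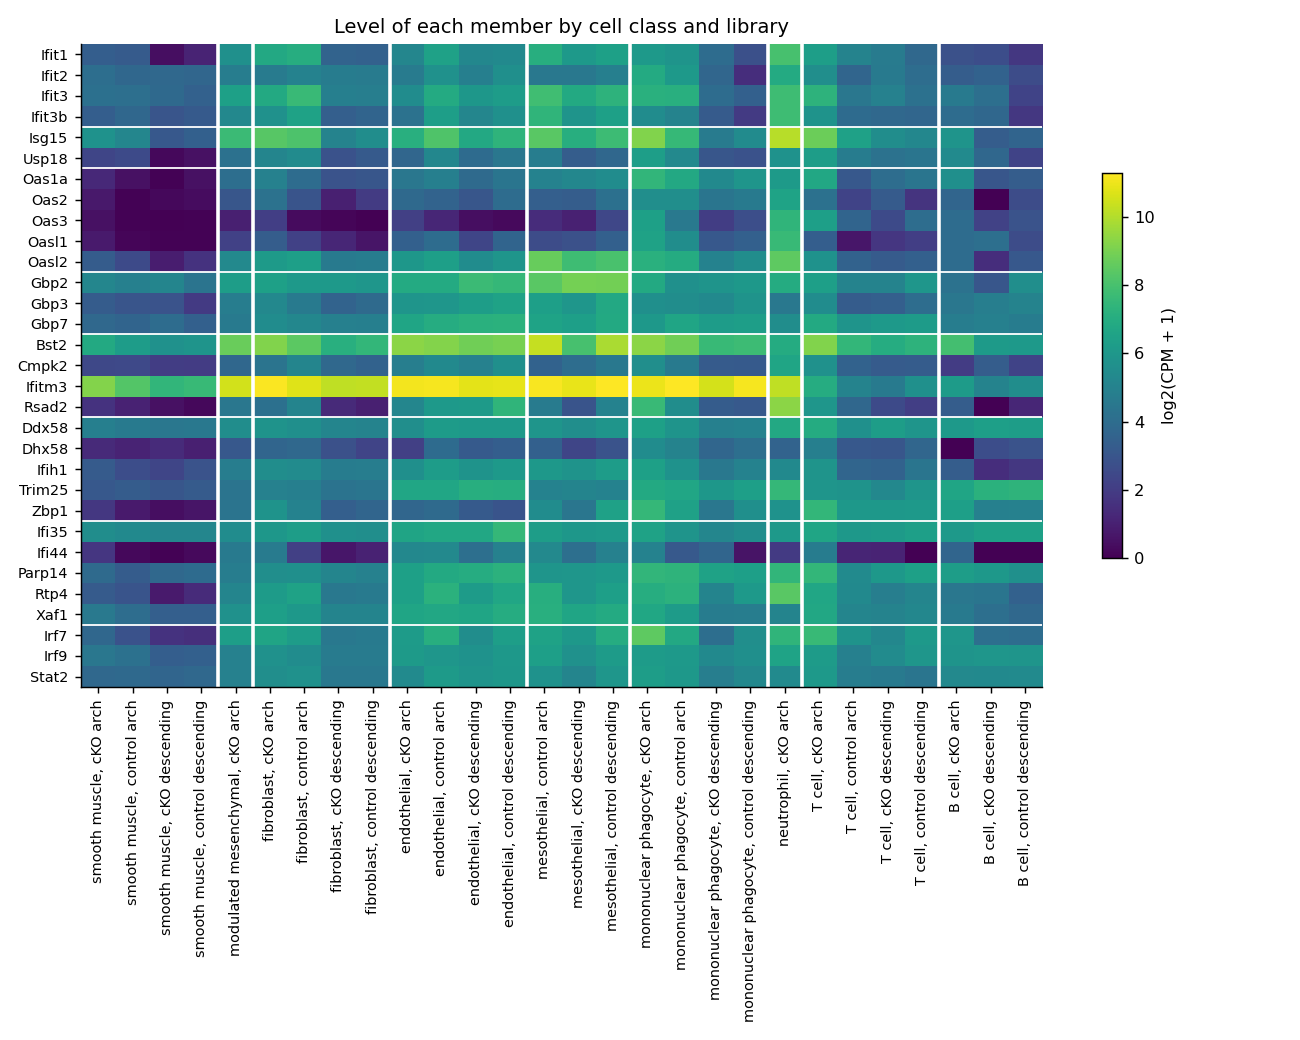
Level of each member (rows, grouped by role) in 9 cell classes by library (columns), drawn as log2 of CPM plus 1. Smooth muscle columns are the darkest, that is the lowest, of the classes drawn, Ifitm3 and Bst2 are high in most classes, and Oas2, Oas3 and Oasl1 are highest in neutrophils of the cKO arch library.

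The genotypes were compared first in the aortic arch, the segment with vessel wall of neural crest origin, where the member sums differed most in T cells. A gene was measured if its UMIs in the 2 libraries added up to 20 or more, and called higher or lower at 1.5-fold or beyond. In T cells 29 of 30 measured members were higher in the cKO library and 0 lower, against 16.1% of all genes higher and 33.6% lower, and the members' median log2 ratio was 1.90 against −0.27 for all genes. The exception was Trim25, at 59.2 CPM in the cKO and 54.0 CPM in the control library.

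Among the transcription factors, Irf7, which drives further interferon production, was at 193 CPM in cKO arch T cells, against 55.3, 36.1 and 67.6 CPM in control arch, cKO descending and control descending T cells. The log2 ratio within the arch was 1.79 (1.46 to 2.15), and Irf9 and Stat2, the ISGF3 subunits, had 1.27 (0.79 to 1.80) and 1.31 (0.80 to 1.86). Isg15 was at 427 CPM in cKO arch T cells, against 86.7 CPM in control arch, 45.7 CPM in cKO descending and 36.6 CPM in control descending T cells, a log2 ratio of 2.29 (2.04 to 2.57) within the arch. The cKO arch library was thus the highest of the 4 for these genes. Ifit3, which binds viral RNA together with Ifit1, was at 155 CPM in the cKO arch, 21.4 CPM in the control arch, 30.1 CPM in the cKO descending and 17.7 CPM in the control descending library. Oas1a, an oligoadenylate synthetase that activates RNase L, was at 108 CPM in the cKO arch and 7.54 CPM in the control arch library, with 15.6 CPM in the cKO descending and 20.0 CPM in the control descending library. Its arch log2 ratio of 3.79 (3.01 to 4.82) was exceeded by Ifi44 alone, at 26.0 CPM against 1.26 CPM, or 4.06 (2.44 to 7.46). Of the RNA sensors, Ifih1, which encodes MDA5, was at 56.5 CPM in the cKO arch and 11.9 CPM in the control arch library.

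The T cells of the control arch library were partly of another kind. Of its 270 T cells 120 carried thymocyte markers, against 7 of 472 in the cKO arch library, and those 120 cells had a summed level of 612 CPM. Without such cells the sums were 3310 CPM in the cKO arch and 1348 CPM in the control arch library, a log2 ratio of 1.30 in place of 1.72, and 27 of 30 measured members were higher and 0 lower, against 15.2% of all genes higher and 26.0% lower. Phagocyte markers also moved with the library: 12 of 12 were detected and summed to 270 CPM in cKO arch T cells, against 11 of 12 and 131 CPM in control arch T cells. Of 5 neutrophil markers 5 were detected in cKO arch T cells, at 60.9 CPM in sum, and 0 in control arch T cells. The part of either list in the difference was not tested.

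Mononuclear phagocytes of the cKO arch library had higher levels of a subset of the members. Of 31 measured members 14 were higher and 1 lower in the cKO library, against 17.0% of all genes higher and 23.9% lower, with a median log2 ratio of 0.57 against −0.09 for all genes. Irf7 was at 358 CPM in cKO arch phagocytes, against 110.5 CPM in control arch, 15.8 CPM in cKO descending and 46.7 CPM in control descending phagocytes, a log2 ratio of 1.69 (1.51 to 1.88) in the arch. Isg15 was at 579 CPM in the cKO arch, 187 CPM in the control arch, 25.3 CPM in the cKO descending and 43.1 CPM in the control descending library. For both genes the arch libraries stood above the descending ones and the cKO arch library above the control arch library. Rsad2 was at 199 CPM in cKO arch and 46.1 CPM in control arch phagocytes, a log2 ratio of 2.10 (1.83 to 2.40). Oas3 was at 85.1 CPM in the cKO arch and 22.4 CPM in the control arch library, or 1.91 (1.52 to 2.35). Members with related products hardly differed: the Ifit3 log2 ratio was 0.05 (−0.13 to 0.23), Oas2 had 0.01 (−0.29 to 0.33), and Irf9 had 0.11 (−0.15 to 0.37). Gbp7, a guanylate-binding protein that acts on pathogen vacuoles, was the lower one, at 64.4 CPM in the cKO and 97.8 CPM in the control library. Ifitm3 had a log2 ratio of −0.35 (−0.39 to −0.31), so the sum with Ifitm3 differed less, by 0.28 against 0.71 without it.

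The makeup of the phagocytes differed as well. Cells with fewer than 10 C1q UMIs per 10000, which express little of the complement genes of resident macrophages, were 28.2% of cKO arch and 9.32% of control arch phagocytes, a split chosen after seeing the data. Among the C1q-high cells, 831 from the cKO and 292 from the control arch library, the summed log2 ratio was 0.46 (0.42 to 0.51). Of 31 measured members 10 were higher and 1 lower in these cells, against 17.0% of all genes higher and 21.8% lower. Among the C1q-low cells, 327 from the cKO and 30 from the control arch library, the sums were 4987 CPM in the cKO and 933 CPM in the control library. There 29 of 31 measured members were higher and 0 lower, against 30.0% and 21.7% of all genes.

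In arch smooth muscle the class sums differed by a log2 ratio of 0.38 (0.35 to 0.42), 487 CPM in the cKO against 373 CPM in the control library. Of 28 measured members 10 were higher in the cKO library and 0 lower, against 11.2% of all genes higher and 17.8% lower, and the median log2 ratio was 0.37 against −0.11 for all genes. Irf7 was at 12.9 CPM in the cKO arch, 6.17 CPM in the control arch, 2.16 CPM in the cKO descending and 1.84 CPM in the control descending library. Isg15 was at 53.2 CPM in the cKO arch and 35.5 CPM in the control arch library, with 7.75 CPM in the cKO descending and 10.2 CPM in the control descending library. Ifitm3 was at 584 CPM in the cKO arch, 308 CPM in the control arch, 172 CPM in the cKO descending and 197 CPM in the control descending library, so its arch ratio was larger than that of the sum, at 0.92 (0.89 to 0.96). Bst2, the most abundant of the others, was at 114 CPM in the cKO arch and 75.1 CPM in the control arch library. The largest ratios came from low levels. Ifi44, an interferon-induced gene whose function is less settled, was at 2.45 CPM in the cKO arch and 0.193 CPM in the control arch library, a log2 ratio of 3.62 (2.67 to 4.78). Zbp1, a sensor of Z-form nucleic acid, was at 2.51 CPM in the cKO arch and 0.773 CPM in the control arch library. Oas1a was at 1.44 CPM in cKO arch and 0.422 CPM in control arch smooth muscle. The Ifit genes stayed under 1.5-fold: Ifit1 had a log2 ratio of 0.17 (−0.11 to 0.44), Ifit2 had 0.36 (0.15 to 0.57), Ifit3 had 0.04 (−0.16 to 0.24) and Ifit3b had −0.43 (−0.69 to −0.17).

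The class boundary matters here. Some gated smooth muscle cells fell into the cluster of modulated mesenchymal cells, whose markers summed to 1375 CPM in cKO arch and 90.7 CPM in control arch smooth muscle. Without them, an alternative chosen after seeing the data, the summed log2 ratio was 0.19. Phagocyte markers were at 51.0 CPM in cKO arch and 14.3 CPM in control arch smooth muscle, and neutrophil markers at 19.4 CPM in cKO arch and 0.685 CPM in control arch smooth muscle, with every marker of both lists detected in both libraries. The part of these markers' cells in the difference was not tested.

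Arch fibroblasts showed members on both sides. Of 30 measured members 7 were higher and 4 lower in the cKO library, against 11.9% of all genes higher and 19.3% lower, and the sums of 2242 CPM in the cKO and 2036 CPM in the control library gave a log2 ratio of 0.14. As a mean over cells the ratio was −0.064, so its sign depends on the weight given to each cell. Bst2 was at 562 CPM in the cKO arch, 344 CPM in the control arch, 139 CPM in the cKO descending and 175 CPM in the control descending library. Ifi44 was at 25.3 CPM in the cKO arch and 3.46 CPM in the control arch library, 2.86 (2.38 to 3.38) on the log2 scale, and Oas2, Oasl1, Oas1a, Zbp1 and Gbp3 were higher by 0.62 to 1.45. The lower members were Ifit3, Ifit3b, Rsad2 and Cmpk2, the last a mitochondrial nucleotide kinase. Ifit3 was at 116 CPM in the cKO arch and 199 CPM in the control arch library, with 28.8 CPM in the cKO descending and 27.2 CPM in the control descending library. For Ifit3 the arch libraries were both high and the control arch library was the highest. Modulated cell markers were at 3829 CPM in cKO arch and 539 CPM in control arch fibroblasts, and their part in these differences was not tested.

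Endothelial cells differed in the other direction. Of 30 measured members 0 were higher and 13 lower in the cKO arch library, against 10.3% of all genes higher and 20.3% lower, with a median log2 ratio of −0.49 against −0.09 for all genes. The whole Ifit family was among the lower members. Ifit3 was at 44.1 CPM in the cKO arch, 120 CPM in the control arch, 62.9 CPM in the cKO descending and 75.9 CPM in the control descending library, with an arch log2 ratio of −1.43 (−1.96 to −0.98). Ifit1 was at 35.0 CPM in the cKO arch and 88.3 CPM in the control arch library. Isg15 was at 138 CPM in cKO arch and 287 CPM in control arch endothelial cells. Usp18, the protease that removes ISG15 and brakes the type I receptor, was at 12.4 CPM in the cKO arch and 36.3 CPM in the control arch library, or −1.48 (−2.57 to −0.67). For these genes the control arch library was the highest of the 4. Bst2, Gbp2 and Ifitm3 had log2 ratios of 0.12, −0.02 and −0.02. The cKO arch class held 147 cells against 693 in the control arch library, which widens its intervals. Fibroblast markers, 8 of 8 detected in both, summed to 644 CPM in cKO arch and 1379 CPM in control arch endothelial cells, and their part in the difference was not tested.

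**Figure D3:**
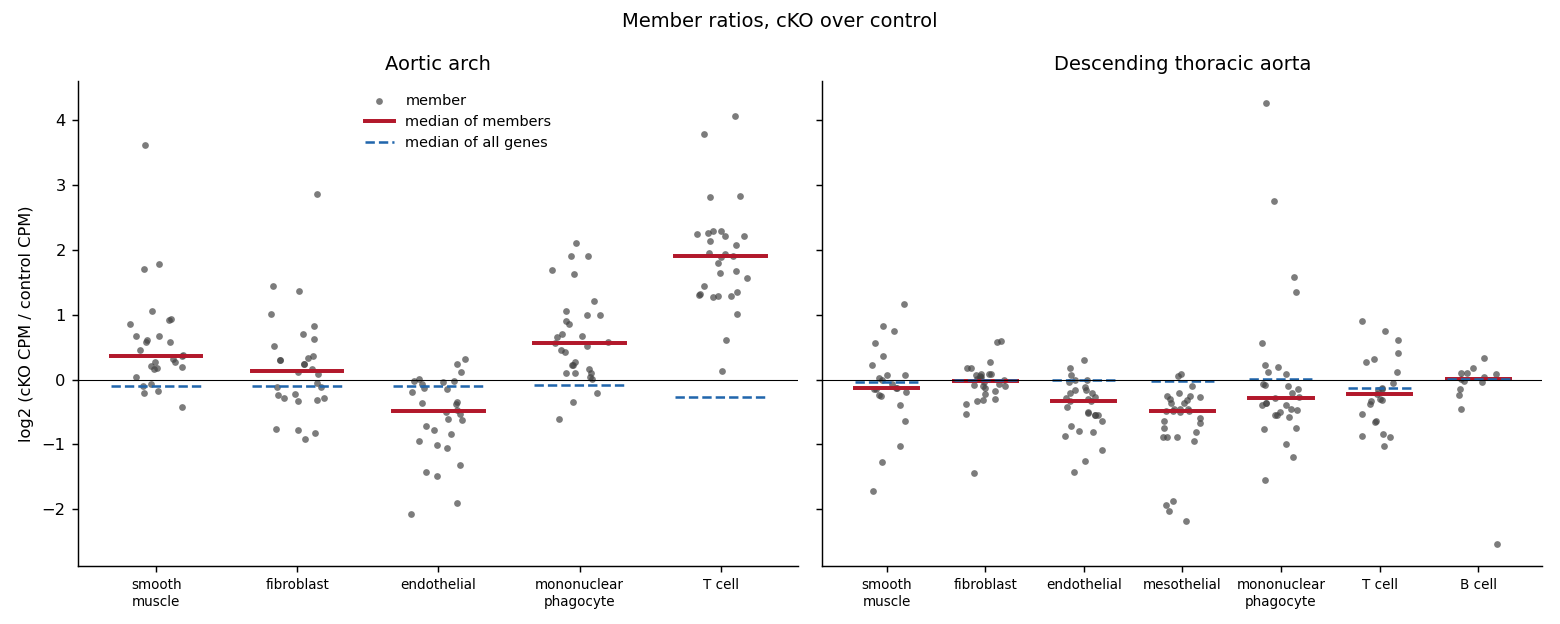
Log2 ratio of cKO over control CPM for each measured member (points) in each cell class, in the aortic arch (left) and the descending thoracic aorta (right), with the median of the members (red) and of all measured genes (blue dashes). In the arch the members of T cells lie at or above 0.13 and those of endothelial cells mostly below 0, while in the descending aorta the medians lie between −0.49 and 0.00.

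In the descending thoracic aorta, outside the territory of the neural crest, the 2 genotypes were compared in the same way. In smooth muscle the sums were 270 CPM in the cKO and 263 CPM in the control library, a log2 ratio of 0.04, with 3 of 23 measured members higher and 4 lower, against 2.94% of all genes higher and 5.48% lower. The higher members were Gbp2, at 34.2 CPM in the cKO and 19.3 CPM in the control library, Gbp3, at 6.36 CPM in the cKO and 2.82 CPM in the control library, and Dhx58, whose interval reached below 0 (−0.14 to 1.71). Gbp2 and Gbp3 encode guanylate-binding proteins that respond to interferon gamma. Among the lower members were Ifit1, Oasl2 and Rtp4, all at low levels. Ifit1 was at 0.332 CPM in the cKO and 1.15 CPM in the control library. Oasl2 was at 0.885 CPM in the cKO and 2.19 CPM in the control library, and Rtp4 at 0.775 and 1.61 CPM. In fibroblasts 1 of 28 measured members was higher and 1 lower, against 4.10% and 5.02% of all genes, with a median of −0.02. In endothelial cells 0 of 30 were higher and 8 lower, against 6.68% and 7.78% of all genes. Rsad2 was at 70.5 CPM in cKO and 168 CPM in control descending endothelial cells, −1.25 (−1.43 to −1.08). Irf7 was at 45.0 CPM in cKO and 78.8 CPM in control descending endothelial cells.

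Mesothelial cells had the clearest difference in the descending aorta. Of 31 measured members 0 were higher and 13 lower in the cKO library, against 4.92% of all genes higher and 7.48% lower, and the median log2 ratio was −0.49. Bst2 was at 253 CPM in the cKO and 929 CPM in the control descending library. Zbp1 was at 20.9 CPM in the cKO and 86.1 CPM in the control library, and Rsad2 at 6.72 CPM in the cKO and 30.9 CPM in the control library. Gbp2, at 491 CPM in the cKO and 470.0 CPM in the control library, did not share this difference. Fibroblast markers summed to 7573 CPM in cKO and 10230 CPM in control descending mesothelial cells, and their part was not tested. The cKO arch library held too few mesothelial cells for the same comparison in the arch. In descending mononuclear phagocytes 4 of 31 measured members were higher and 5 lower, against 7.45% and 8.41% of all genes. The higher members were Ifi44, Ifit1, Ifit2 and Ifit3b. Of these, Ifi44 was at 11.8 CPM in the cKO and 0.531 CPM in the control library. Ifit2 was at 12.3 CPM in the cKO and 1.77 CPM in the control library. It had UMIs in 1.24% of cKO and 1.69% of control cells, so its difference rested on few cells. Irf7, on the lower side, was at 15.8 CPM in the cKO and 46.7 CPM in the control library. In descending T cells 3 of 23 were higher and 6 lower, against 5.35% and 13.9% of all genes, and in B cells 0 of 13 were higher and 1 lower, against 9.89% and 10.5%. T cell counts were small, and the interval of the Isg15 log2 ratio ran from −0.39 to 1.04.

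The segments were also compared within each genotype. These comparisons use the same 4 libraries as those of genotype, so their values are set side by side and are not further evidence. In control fibroblasts 25 of 30 measured members were higher in the arch than in the descending aorta and 0 lower, against 9.94% of all genes higher and 10.1% lower, with a median log2 ratio of 1.21. Rsad2 was at 32.8 CPM in control arch and 0.985 CPM in control descending fibroblasts. Ifit1 was at 133 CPM in the control arch and 10.5 CPM in the control descending library, and Isg15 at 278 CPM in the control arch and 46.2 CPM in the control descending library. Gbp2, at 68.0 CPM in the control arch and 60.8 CPM in the control descending library, hardly differed. In cKO fibroblasts the count was also 25 of 30 higher and 0 lower, against 12.5% and 18.7% of all genes. Control phagocytes had 24 of 31 members higher in the arch and 0 lower, against 10.5% and 9.50% of all genes, with Ifit2 at 66.0 CPM in the control arch and 1.77 CPM in the control descending library. In cKO phagocytes 28 of 31 were higher and 0 lower, against 17.2% and 24.3% of all genes, with Isg15 at 579 CPM in the cKO arch and 25.3 CPM in the cKO descending library. Smooth muscle had 14 of 27 members higher and 1 lower in the control arch, against 7.32% and 13.0% of all genes, and 15 of 28 higher and 0 lower in the cKO arch, against 9.93% and 18.8%. Endothelial cells showed little: 8 of 30 higher and 3 lower in the control arch, against 12.4% and 13.3%, and 6 higher and 4 lower in the cKO arch, against 11.1% and 20.5%. In control mesothelial cells 7 of 31 were higher in the arch and 5 lower, against 7.37% and 11.7% of all genes. In T cells 3 of 28 members were higher in the control arch and 8 lower, against 25.3% and 10.9% of all genes, while 29 of 30 were higher in the cKO arch and 0 lower, against 22.0% and 14.6%. Without the cells that carried thymocyte markers the direction in the controls turned, with sums of 1348 CPM in control arch and 1091 CPM in control descending T cells. Of 27 measured members 8 were then higher and 3 lower in the control arch, against 14.1% and 8.35% of all genes.

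The spread over cells was looked at in cells thinned to 2000 UMIs each, counting the members out of 29 that had a UMI, which leaves out the broadly expressed Ifitm3 and Bst2. Cells with 6 or more such members were 27.0% of cKO arch T cells, against 3.85% in the control arch, 5.66% in the cKO descending and 3.82% in the control descending library. These T cells include those with thymocyte markers, before thinning 7 of 472 in the cKO arch and 120 of 270 in the control arch library. In phagocytes the shares were 24.4% in the cKO arch, 20.7% in the control arch, 2.39% in the cKO descending and 2.02% in the control descending library. Fibroblasts had 9.53% in the cKO arch, 11.3% in the control arch, 0.790% in the cKO descending and 1.18% in the control descending library, so such cells were common in both arch libraries and scarce in the descending ones. Endothelial cells had them in every library, at 14.3% in the cKO arch, 23.7% in the control arch, 13.0% in the cKO descending and 18.2% in the control descending library. Smooth muscle had 8 of 1295 cells in the cKO arch, 28 of 3757 in the control arch, and 0 of 1485 and 0 of 1273 in the cKO and control descending libraries. Thinning left out the shallower cells, 50 of 472 T cells in the cKO arch and 36 of 270 in the control arch among them. At each cell's own depth the T cell shares were 41.5% in the cKO arch, 15.9% in the control arch, 14.2% in the cKO descending and 20.2% in the control descending library. For arch endothelial cells the order turned at own depth, with 48.3% in the cKO and 42.6% in the control library. How far these UMIs lay in few cells differed between classes. In control arch mesothelial cells the top 5% of cells held 17.3% of them, and in cKO arch endothelial cells 17.5%. In control arch fibroblasts the top 5% held 41.7% of these UMIs, and 33.6% of cells had none. In cKO arch neutrophils the top 5% held 57.9%, with 209 UMIs of members in the highest of 160 thinned cells. At that depth 196 of the 356 neutrophils were too shallow to be counted.

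**Figure D4:**
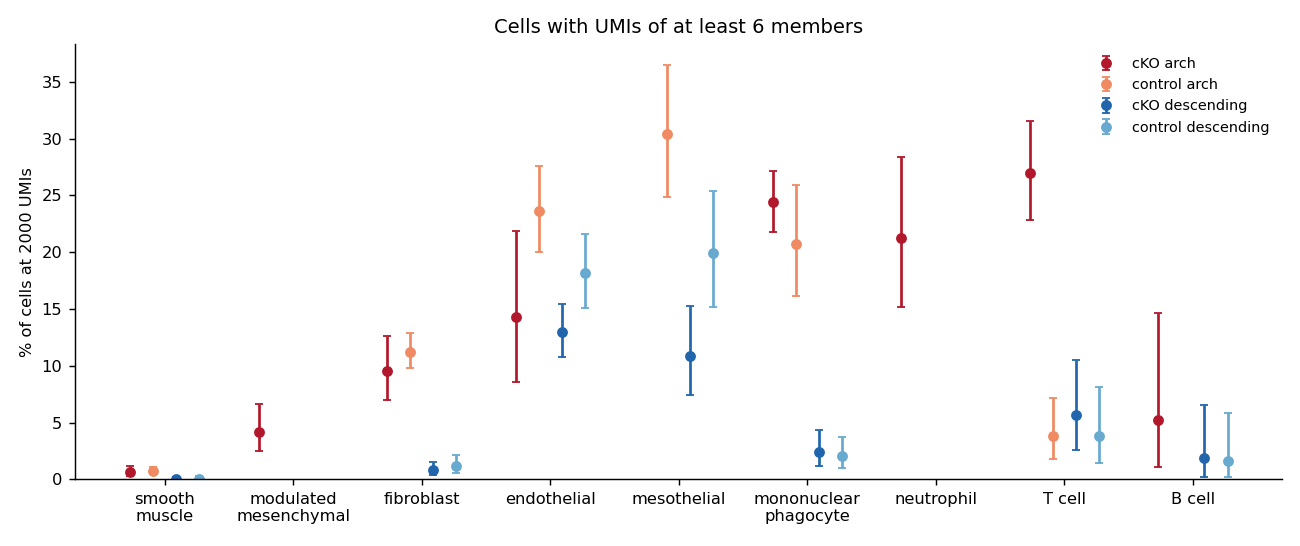
Share of cells, in percent, with UMIs of at least 6 of the 29 members other than Ifitm3 and Bst2 after thinning each cell to 2000 UMIs, by cell class and library, with exact 95% binomial intervals. T cells of the cKO arch library stand at 27.0%, and fibroblasts and mononuclear phagocytes are high in both arch libraries. Cells with thymocyte markers, most of them in the control arch library, are included among the T cells.

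The cKO arch table also counts a feature named RFP, taken here for the R26-tdT reporter, which a cell carries after Cre recombination. RFP-high cells had 16 or more RFP UMIs and RFP-low cells fewer than 8, so the 2 sides come from 1 library and 1 cell preparation, and a cell's RFP count also scales with its depth. The RFP-high cells numbered 410 smooth muscle, 152 modulated and 169 fibroblast cells, and the RFP-low cells 930, 288 and 344. Among other classes 1 of 147 endothelial cells, 3 of 1158 phagocytes and 0 of 472 T cells were RFP-high.

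RFP-high smooth muscle had higher levels of most members. The sums were 634 CPM in RFP-high cells, against 406 CPM in RFP-low ones, a log2 ratio of 0.64 (0.57 to 0.71), and 18 of 28 measured members were higher and 0 lower, against 7.07% of all genes higher and 5.37% lower. The median log2 ratio was 0.71 against 0.02 for all genes. Ifit1 was at 17.2 CPM in RFP-high cells, against 5.94 CPM in RFP-low ones, 1.53 (1.02 to 2.06). Ifit3 was at 27.9 CPM in RFP-high cells, against 11.7 CPM in RFP-low ones, 1.26 (0.88 to 1.64). Rtp4, a chaperone of opioid receptors with antiviral action, was at 14.8 CPM in RFP-high cells, against 6.05 CPM in RFP-low ones. Ifitm3 was at 859 CPM in the RFP-high cells, against 462 CPM in the RFP-low ones, and Isg15 at 72.7 CPM in the RFP-high cells, against 46.7 CPM in the RFP-low ones. The depths were alike, with medians of 9336 UMIs in RFP-high and 9455.5 UMIs in RFP-low cells. Phagocyte markers, 12 of 12 detected on both sides, were at 48.9 CPM in RFP-high cells, against 56.5 CPM in RFP-low ones. Their part in the difference was not tested. Fibroblast markers, 8 of 8 detected on both sides, were at 448 CPM in RFP-high cells, against 264 CPM in RFP-low ones, and their part was not tested. The result rested in part on where the class ends. In cells that clustering also placed with smooth muscle, 350 RFP-high and 847 RFP-low, the sums were 491 CPM in RFP-high cells, against 384 CPM in RFP-low ones, a log2 ratio of 0.35 (0.27 to 0.44), and 4 of 25 measured members were higher and 2 lower, against 6.20% and 6.27% of all genes. In gated cells that fell into the modulated cluster, 60 RFP-high and 71 RFP-low, the sums were 1140 CPM in the RFP-high cells, against 525 CPM in the RFP-low ones, or 1.12 (0.98 to 1.26), and 19 of 20 measured members were higher and 0 lower, against 16.9% and 5.51% of all genes. With classes taken from clusters alone, the log2 ratio was 0.20, with 4 of 29 measured members higher and 4 lower, against 5.34% and 9.01% of all genes.

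Modulated mesenchymal cells had a summed level of 2018 CPM in RFP-high cells, against 1197 CPM in RFP-low ones, a log2 ratio of 0.75. Of 30 measured members 15 were higher and 2 lower, against 7.28% of all genes higher and 8.01% lower, with a median of 0.57 against 0.04 for all genes. Isg15 was at 319.7 CPM in RFP-high cells, against 133 CPM in RFP-low ones. Ifit3b was at 61.9 CPM on the RFP-high side, against 19.6 CPM on the RFP-low side, and Gbp2 at 124 CPM on the RFP-high side, against 45.1 CPM on the RFP-low side. Rsad2 and Oas2 were the lower members, with log2 ratios of −0.77 (−1.35 to −0.23) and −1.21 (−2.34 to −0.23). With RFP counted in thinned cells 0 members were lower, and with classes from clusters 1 was. The RFP-high cells were deeper, with a median of 12963 UMIs, against 6762 in the RFP-low cells, and with RFP counted in thinned cells the summed log2 ratio was 0.95. In fibroblasts 9 of 30 measured members were higher in RFP-high cells and 0 lower, against 8.28% and 7.43% of all genes, with sums of 2551 CPM in RFP-high cells, against 1968 CPM in RFP-low ones. The RFP-high fibroblasts were deeper as well, with a median of 7973 UMIs, against 5244 in the RFP-low ones. Ifit3 was at 177 CPM in RFP-high fibroblasts, against 66.1 CPM in RFP-low ones, and Rsad2 at 27.7 CPM in RFP-high fibroblasts, against 9.27 CPM in RFP-low ones. Oasl1, an oligoadenylate synthetase-like gene that restrains IRF7 translation, was at 20.3 CPM in RFP-high fibroblasts, against 2.01 CPM in RFP-low ones. Over all 546 cKO arch fibroblasts Oasl1 had 39 UMIs, in 2.56% of cells, so this difference rests on few cells. Bst2, Irf7, Stat2 and Ifitm3 had log2 ratios between −0.06 and 0.00 in fibroblasts, so the Ifit genes differed without them. Across cells thinned to 2000 UMIs, 7.88% of RFP-high and 3.78% of RFP-low smooth muscle cells had 3 or more members with a UMI, while the shares were 20.0% of RFP-high and 13.6% of RFP-low modulated cells, and 30.9% of RFP-high and 29.4% of RFP-low fibroblasts.

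**Figure D5:**
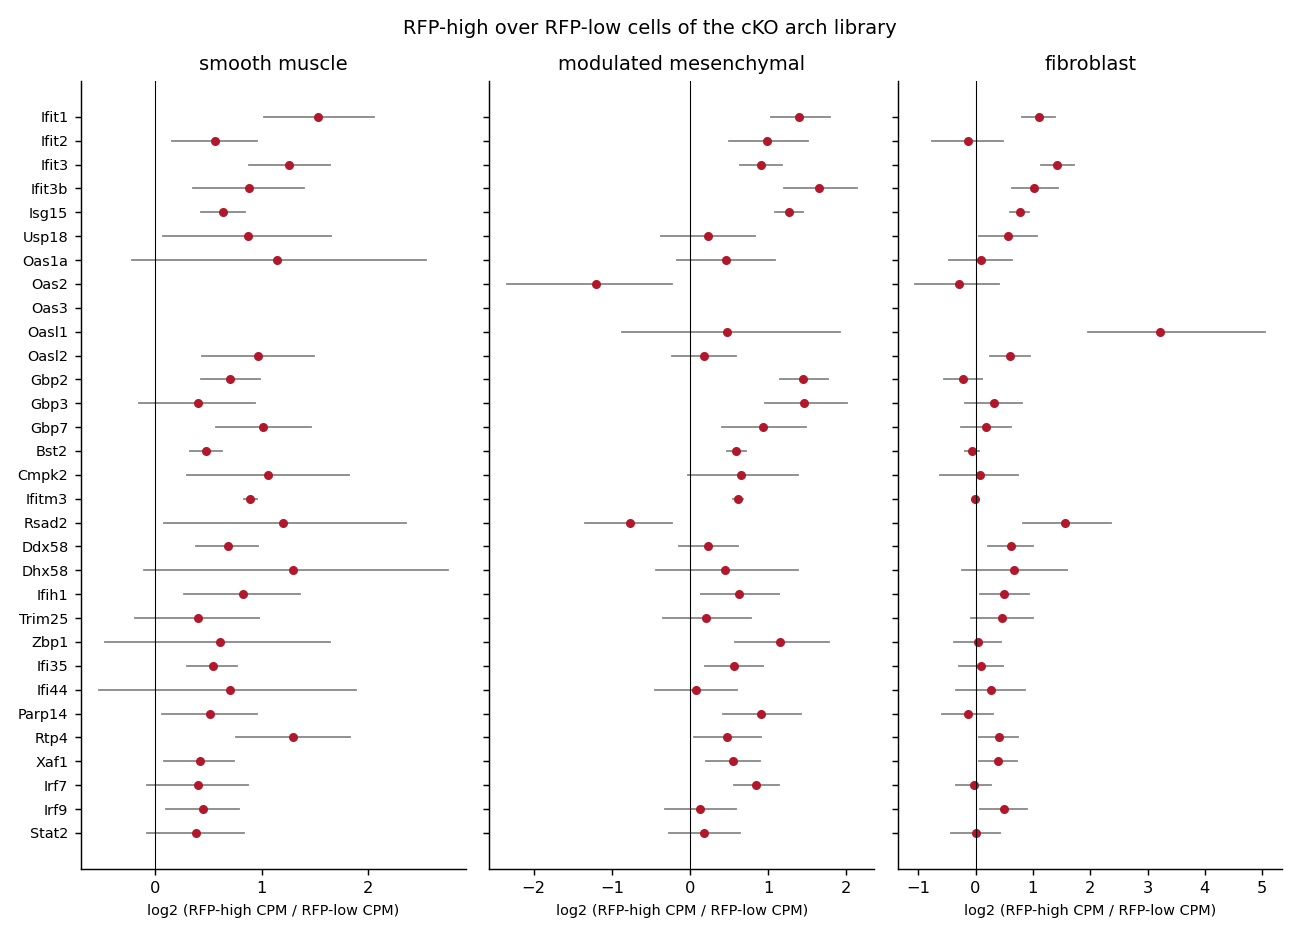
Log2 ratio of RFP-high over RFP-low CPM for each member with at least 20 UMIs, in smooth muscle, modulated mesenchymal cells and fibroblasts of the cKO arch library, with exact 95% intervals. Most smooth muscle intervals lie above 0, and Rsad2 and Oas2 are below 0 in modulated cells, where 0 members were lower with RFP counted in thinned cells.

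The ligands were seldom seen. Ifnb1, Ifna1 and Ifna4, which encode type I interferons, had 0 UMIs in the kept cells of every library, and Ifna2 had 1 UMI, in the cKO arch library. Ifng, which encodes interferon gamma, had 325 UMIs in the cKO arch, 42 in the control arch, 46 in the cKO descending and 75 in the control descending library. In T cells it was at 158 CPM in the cKO arch, 16.3 CPM in the control arch, 31.3 CPM in the cKO descending and 51.0 CPM in the control descending library, the same library being highest as for the members. Of the receptor genes, Ifnar1 was at 48.6 CPM over all kept cells of the cKO arch, 32.8 CPM in the control arch, 46.1 CPM in the cKO descending and 48.6 CPM in the control descending library. Ifnar2 was at 125.7, 129.1, 136 and 153.2 CPM in the same order. These levels mix cell classes whose shares differed. Phagocytes, the highest class for Ifnar1 in both arch libraries, were 20.8% of cKO arch and 4.00% of control arch cells. The part of cell makeup in these levels was not tested. Ifngr1 was highest in T cells in both arch libraries, at 702 CPM in the cKO and 675 CPM in the control library.

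Another 116 genes of the interferon pathways, chosen by role, were counted in the same way, and 114 of them are listed in all 4 tables. In the arch 60 of 95 measured were higher and 6 lower in cKO T cells, against 16.1% of all genes higher and 33.6% lower. In phagocytes 45 of 104 were higher and 8 lower, against 17.0% and 23.9% of all genes, and in smooth muscle 43 of 99 and 4, against 11.2% and 17.8%. In fibroblasts 27 of 96 were higher and 4 lower, against 11.9% and 19.3% of all genes. The endothelial counts, 10 of 90 higher and 23 lower, were near the 10.3% and 20.3% of all genes. The sublist of interferon gamma and antigen presentation genes had medians of 1.31 in T cells, 1.23 in smooth muscle, 1.26 in fibroblasts and 0.89 in phagocytes. Its higher members numbered 11 of 14, 11 of 15, 10 of 15 and 12 of 16 in the same order. In endothelial cells 2 of 14 were higher and 2 lower, with a median of −0.24. Cxcl10, a chemokine that draws T cells, was at 147 CPM in cKO arch and 11.3 CPM in control arch T cells, and at 279 CPM in cKO arch and 11.4 CPM in control arch phagocytes. Cxcl9, a chemokine of the same receptor, was at 35.5 CPM in cKO arch and 3.26 CPM in control arch fibroblasts, and Icam1, a leukocyte adhesion molecule, at 15.8 CPM in cKO arch and 1.16 CPM in control arch smooth muscle. Gbp8 ran the other way in arch smooth muscle, at 0.188 CPM in the cKO and 12.3 CPM in the control library. Reads of Gbp genes are uncertain, and the cKO arch library was counted against another annotation. The part of either in the Gbp8 difference was not tested. In the descending aorta 29 of 97 of these genes were lower in cKO mesothelial cells and 2 higher, against 7.48% of all genes lower and 4.92% higher. In phagocytes 21 of 104 were lower and 6 higher, against 8.41% and 7.45% of all genes, and in smooth muscle 10 of 89 and 3, against 5.48% and 2.94%. Between RFP-high and RFP-low cells, 29 of 93 were higher and 2 lower in smooth muscle, against 7.07% and 5.37% of all genes, and 29 of 90 higher and 2 lower in modulated cells, against 7.28% and 8.01%. The fibroblast counts, 4 of 89 higher and 6 lower, were near or below the 8.28% and 7.43% of all genes. Cxcl10 was at 154 CPM in RFP-high modulated cells, against 28.4 CPM in RFP-low ones, but at 15.4 CPM in RFP-high fibroblasts, against 61.6 CPM in RFP-low ones. Ifi27l2a, an interferon-induced gene of the Ifi27 family, was at 303 CPM in RFP-high smooth muscle cells, against 106 CPM in RFP-low ones.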

How the data were processed

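The members and lists were chosen with earlier results of these data known. The authors deposited unnormalised UMI counts from a 10x droplet kit that reads transcript 5′ ends. The submitters' processing notes name Cell Ranger 6.1.1 and the mm10 build, and per the file headers the version was 6.1.2. The sources used here do not name the annotation release. Cells with at least 500 genes and under 10% mitochondrial UMIs were kept, and the top doublet scores were removed at 0.8% per 1000 filtered cells (216 to 597 cells per library). Classes of at least 50 cells came from gates on the mean scores of markers, without interferon genes. Leiden clustering, also without interferon genes, gave 37 clusters (2 unnamed) as an alternative. Counts were summed per class and library. Log2 ratios used a prior of 0.5 UMIs, and exact conditional intervals at 95% cover counting error only, not the spread between cells or animals. With 1 library per group no test was run. The other pathway genes named were those with the largest ratios at 50 or more UMIs, and members were named by role, level and ratio. Alternatives were other classes, cell filters, scaling, minimum counts, Ifitm3 and RFP limits. The ratio calculation was tested on simulated Poisson counts, which leave out the spread between cells and animals. Analyses used Python 3.11.15, numpy 2.4.6, scipy 1.17.1, pandas 2.3.3 and scanpy 1.11.5.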

Additional observations from a re-analysis of the deposited data

Results flagged for a closer look

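The summed log2 ratio of the members without Ifitm3, cKO over control, had opposite signs in the aortic arch and the descending thoracic aorta in 3 classes. In T cells it was 1.72 for the arch and −0.21 for the descending aorta. Mononuclear phagocytes had 0.71 for the arch and −0.28 for the descending aorta, and fibroblasts had 0.14 for the arch and −0.084 for the descending aorta. As a mean over cells the arch fibroblast ratio was −0.064, the same sign as in the descending aorta. With 1 library per group these differences between segments were not tested.

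Mx1, a dynamin-like GTPase that blocks viral replication, is listed in the cKO arch table alone and entered no comparison. It had 527 UMIs in mononuclear phagocytes (62.4 CPM, 57.1 to 67.9), 80 UMIs in T cells (44.3 CPM, 35.1 to 55.1), 24 UMIs in fibroblasts, 15 UMIs in modulated mesenchymal cells and 8 UMIs in smooth muscle. Each count is above the floor of 3 UMIs set here. In neutrophils, which led for 14 of the members, it had 1 UMI, and in endothelial cells 0.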

How the results depend on the processing

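Of the sums and counts recomputed for arch and descending smooth muscle, phagocytes and T cells and for RFP, 110 changed by less than their counting interval or 1.5-fold and 45 by more. Of the other values recomputed, 54 changed by less, 41 by more and 1 reversed. The arch smooth muscle ratio was 0.44 in cells of 1000 or more genes and under 5% mitochondrial UMIs, 0.48 with median-of-ratios scaling, 0.65 with Ifitm3 and 0.19 without cells of the modulated cluster, with 6 members higher at a minimum of 100 UMIs and 1 lower with classes from clusters or without those cells. The arch phagocyte ratio was 0.82 with clusters, 0.80 with median-of-ratios scaling and 0.28 with Ifitm3, with 0 members lower under that scaling or with doublets kept. The arch T cell ratio was 1.86 with clusters, 1.81 in the stricter cells, 1.97 with median-of-ratios scaling and 1.30 without thymocyte-marked cells. The descending smooth muscle ratio was 0.12 with doublets kept, −0.036 as a mean over cells and −0.058 with Ifitm3. Its lower members numbered 2 with clusters, 1 with doublets kept, 1 at 100 UMIs and 10 at 1 UMI. The descending phagocyte ratio was −0.19 as a mean over cells and −0.46 with Ifitm3, with 0 members higher at 100 UMIs and 8 lower with clusters. In descending T cells 0 members were higher and 0 lower at 100 UMIs, and 5 higher at 1 UMI. The RFP smooth muscle ratio was 0.56 with RFP-high at 8 or more UMIs, 0.57 with RFP in thinned cells, 0.20 with clusters, 0.34 without cells of the modulated cluster and 0.78 with Ifitm3. Its higher members numbered 4 with clusters or without those cells, and its lower members 4 with clusters, 1 without those cells and 2 with doublets kept. The RFP modulated ratio was 0.58, 0.95 and 0.68 with RFP-high at 8 or more UMIs, RFP in thinned cells and Ifitm3, with 0 members lower in thinned cells and 1 with clusters. The arch fibroblast ratio, 0.14, was −0.064 as a mean over cells. The causes were not tested. The alternatives without modulated-cluster or thymocyte-marked cells, the C1q split, and for RFP the scaling and doublets, were chosen after seeing the data. No paired analysis was possible because each group has 1 library. Depth limits Oas2, Oas3 and Oasl1 in smooth muscle.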
